A study of Bos taurus with 15 samples.

Results

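Methylation of mammary DNA was compared in windows of 10 kb between heifers that were gestated by heat stressed dams and heifers that were gestated by cooled dams. All 6 heifers were Holstein, with 3 in the group IUCL-H (in utero cooled) and 3 in the group IUHT-H (gestated under heat stress, in utero heat stressed). All dams were kept under shade during the last 6 to 7 weeks of gestation, and only the dams of IUCL-H also had fans and water soakers. Per the study's methods, the heifers were housed together and managed alike after birth, and their mammary glands were biopsied at day 21 of the first lactation. Each heifer gave 1 library and the heifer was the replicate, numbered 1 to 3 within its group in the order of its record. The positions of chromosomes 1 to 29 fell into 250929 windows (bins), of which 109691 (43.7%) had at least 20 methylation calls in every heifer and were kept. A call is 1 read at 1 cytosine, and the level of a bin is the percent of its calls that were methylated.

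Most CpG dinucleotides of mammalian tissue carry a methyl group on their cytosine, while CpG-dense stretches such as many gene promoters are largely free of it. Some long stretches of the genome lose methylation only in part of the cells or of the DNA copies, and they then show intermediate levels in a bulk sample. The lactating mammary gland is a mixture of secretory and myoepithelial cells, fat, connective tissue, vessels and blood cells, so the level of a bin is a mean over all of them. A different mixture of cells and a different level within 1 cell type cannot be told apart in these data. The labelled tissue could not be checked against marker genes, because a gene annotation of the build of the files (UMD3.1) was not used here and no gene was assigned to a bin.

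The 10 kb bins were used because they take in the shallow positions. A heifer had 13031819 to 18912489 calls on the 29 autosomes, and the median position was read 1 time in every heifer. Between 83.7% and 89.5% of a heifer's calls lay at positions with no more than 10 reads. These are the heifer's shallow positions, a set that can differ between heifers. Only 885452 of the 22476771 positions seen in any heifer (3.94%) were listed in all 6, and only 13697 (0.0609%) had more than 10 reads in all 6. The kept bins held 87.1% of all calls. Of these bins, 107934 (98.4%) held no position that had more than 10 reads in all 6 heifers, so they were out of reach of a test on such positions. The median kept bin had 120 listed positions and 70 calls per heifer, and 49 calls in its shallowest heifer. A read of 50 bases can give several calls, and PCR copies were not marked, so counting errors given here treat calls as independent and are lower limits.

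The mean level over bins did not separate the groups. It was 75.1%, 75.2% and 73.0% in IUCL-H and 72.8%, 75.3% and 74.3% in IUHT-H. The lowest heifer and the highest heifer both belonged to IUHT-H, and the range of IUCL-H lay within that of IUHT-H. The group means were 74.4% ± 1.22 and 74.1% ± 1.27 (SD, n = 3 each), a difference of −0.308 percentage points (IUHT-H minus IUCL-H) with a two-sided exact permutation p of 0.8. With 3 against 3 heifers such a test cannot give a p below 0.1. When all calls in kept bins were pooled, which gives deep bins more weight, the difference was −1.42 points (exact permutation p = 0.3). At the positions listed in all 6 heifers, which gave 22880 bins enough calls, it was 0.131 points (exact permutation p = 0.9), against −0.509 points over all positions of the same bins (exact permutation p = 0.5).

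**Figure D1:**
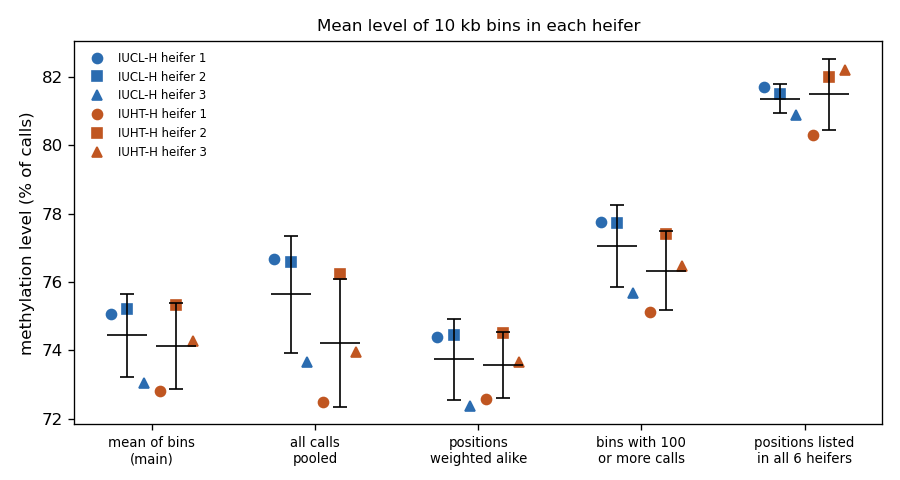
Methylation level in percent of calls (vertical axis) for each heifer under 5 ways of taking the mean over 10 kb bins (horizontal axis). Symbols are heifers, black bars are group means with their SD (n = 3), and the vertical axis does not start at 0. The groups overlap under each of the 5 ways, and heifer 3 of IUCL-H and heifer 1 of IUHT-H are the lowest of their groups in all of them.

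The 2 lowest heifers were the same along the genome. Heifer 3 of IUCL-H and heifer 1 of IUHT-H were the 2 lowest on all 29 autosomes, while the highest heifer was heifer 2 of IUHT-H on 18, heifer 2 of IUCL-H on 9 and heifer 1 of IUCL-H on 2. The mean bin level was lower in IUHT-H on 27 of 29 chromosomes, with differences from −0.643 points on chromosome 3 to 0.0392 points on chromosome 24. On chromosome 3 the levels were 73.0%, 73.6% and 70.8% in IUCL-H and 70.4%, 73.0% and 72.0% in IUHT-H, so the groups overlapped there as on every other chromosome. The median SD within a group over the 29 chromosomes was 1.18 points in IUCL-H and 1.24 points in IUHT-H, larger than every one of the differences. The exact permutation p-values (two-sided, 29 tests) ranged from 0.6 to 1 and were 1 after Benjamini-Hochberg adjustment. The count of 27 was 29 with all calls pooled per chromosome and 29 with a minimum of 100 calls, and it was 28 or 29 without heifer 3 of IUCL-H, heifer 2 of IUHT-H or heifer 3 of IUHT-H. It was 2 of 29 without heifer 1 of IUHT-H, 9 without heifer 2 of IUCL-H and 14 without heifer 1 of IUCL-H. After each heifer was centred on its own mean it was 13 of 29. Such centring removes the mean difference over bins, so chromosomes then fall on both sides by construction.

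No bin passed the test between the groups. The test was the quasi-likelihood test of edgeR on the methylated and unmethylated counts, and a bin was called at a Benjamini-Hochberg q-value of 0.2 or less with a difference of at least 15 points between group means, the cut-offs that the study used for single cytosines. It called 0 of 109691 bins (0%), and the lowest q-value was 1. At an unadjusted p under 0.05 there were 3855 bins (3.51%), 1719 of them higher (1.57%) and 2136 lower (1.95%) in IUHT-H. The same test with heifers centred, by an offset of each heifer's pooled ratio of methylated to unmethylated calls, gave 0 called bins. It had 4332 bins under 0.05 (3.95%). By levels centred on each heifer's median, 2937 of these were higher (2.68%) and 1395 lower (1.27%). On log2 ratios of the counts limma called 0 bins with 4705 (4.29%) under 0.05, and an F test with an overdispersion term per bin called 0 with 1496 (1.36%) under 0.05.

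Logistic regression, the test that the study named for single cytosines, run here without a term for the spread between heifers, called 1637 bins (1.49%), 655 higher (0.597%) and 982 lower (0.895%) in IUHT-H. In 940 of these (57.4%) the levels of the 2 groups did not overlap, against 8.99% of all bins, which were not selected for a difference of 15 points. In the others the ranges of the groups overlapped. Bins of intermediate level made up more of the calls than of all bins: 431 (26.3%) had a mean level of 20 to 50%, a class that held 7.08% of all bins, and 367 of these 431 were lower in IUHT-H. All 7763 bins of that class had a mean difference of −3.29 points, which was 0.455 points without heifer 2 of IUCL-H. Of them 4.19% were lower and 1.49% higher without overlap. Their differences had an SD of 7.36 points, against 7.21 points in the bins at 50 to 70% and 5.62 points over all bins. The part of this spread in the calls was not tested. The dispersion of the counts within groups had a median of 1.49 over all bins (quartiles 0.826 and 2.57) and 1.89 over the bins that logistic regression called. Counting error alone gives 1 on average, with a median below that, and single bins vary widely around it.

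The differences between group means were centred near 0. Their SD over bins was 5.62 points, the central 90% lay between −9.62 and 8.89 points, and 52.2% of bins were lower in IUHT-H. A difference of 15 points or more was seen in 2001 bins (1.82%), of which 793 were higher and 1208 lower. These bins were shallow, with a median of 28 calls in the shallowest heifer against 49 over all kept bins. The 2 groups did not overlap in 9863 bins (8.99%), 4994 higher (4.55%) and 4869 lower (4.44%) in IUHT-H. Of the 20 ways to split 6 heifers into 3 and 3, a share of 0.1 keeps any ranked levels apart. The 8.99% was no larger than that share. With a minimum of 100 calls a like share of bins, 8.87% of 25955, was without overlap, with 954 higher (3.68%) and 1348 lower (5.19%), so that 41.4% of them were higher against 50.6% under the main minimum of 20.

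Other bin widths with the same minimum of 20 calls gave 0 called bins as well. The share with an unadjusted edgeR p under 0.05 was 4.25% at 1 kb, 2.20% at 100 kb and 0.593% at 1 Mb. The test thus gave few small p-values in wide bins, so the lack of calls there says little. The mean difference was −0.207 points over 81206 bins of 1 kb, −0.00992 points over 25096 bins of 100 kb and −0.411 points over 2529 bins of 1 Mb, with exact permutation p-values of 0.8, 1 and 1. The share of bins without overlap was 9.99% at 1 kb, 7.12% at 100 kb and 2.25% at 1 Mb, so it fell as bins grew wider. Of the bins without overlap, 59.2% were higher in IUHT-H at 100 kb and 42.1% at 1 Mb.

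**Figure D2:**
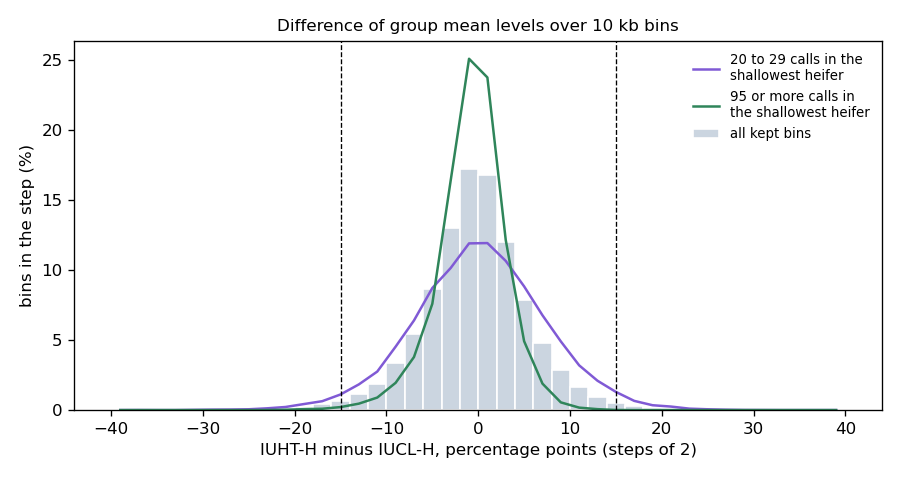
Percent of bins (vertical axis) by the difference of group mean levels in steps of 2 percentage points (horizontal axis, IUHT-H minus IUCL-H). Grey bars are all 109691 kept bins, lines are bins with 20 to 29 and with 95 or more calls in their shallowest heifer, and dashed lines mark 15 points. The distribution is centred near 0 and is narrower for deep bins, with an SD of 3.67 points at 95 or more calls and 7.14 points at 20 to 29.

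The 5 bins with the lowest p-values in each direction, among bins without overlap of the groups and at least 100 kb apart, are described although none was called. Positions are given on UMD3.1 and p-values are unadjusted values of edgeR, each with a q-value of 1. Since these bins were ranked on the difference itself, that their groups do not overlap says nothing more than the ranking.

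Among the 5 bins higher in IUHT-H, the bin chr10:36360000-36369999 was nearly free of methylation in the cooled heifers. It had levels of 12.0%, 5.77% and 2.97% in IUCL-H and 47.3%, 20.8% and 22.5% in IUHT-H, from at least 25 calls. Heifer 1 of IUHT-H stood above the other heifers, and the difference of 23.3 points (unadjusted edgeR p over all bins of 0.000269) was 14.7 points without that heifer. The other bins of this direction were methylated at most of their calls in each heifer. At chr3:30210000-30219999 the levels were 87.0%, 75% and 83.3% in IUCL-H and 98.4%, 95.7% and 94.3% in IUHT-H, from at least 62 calls, so that the 3 in utero heat stressed heifers were close to full methylation. At chr10:11110000-11119999 they were 67.9%, 73.8% and 52.5% against 88.2%, 89.4% and 86.2%, from 40 to 94 calls, with a spread in IUCL-H that was wider than in IUHT-H (the SD in IUHT-H was 1.60 points).

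At chr24:62480000-62489999 the levels were 54.1%, 56.3% and 58.9% in IUCL-H and 89.1%, 73.0% and 76.4% in IUHT-H, from 109 to 204 calls. At its positions listed in all 6 heifers the levels were 41.5%, 45.7% and 44.7% against 87.1%, 83.0% and 70.6%. Each heifer had at least 31 calls there. Those calls are part of the ranked ones, so this was not a separate check. With each position weighted alike the difference went from 23.1 to 15.5 points. At chr9:25870000-25879999 the levels were 88.6%, 89.7% and 89.1% in IUCL-H and 95%, 95.2% and 97.8% in IUHT-H, from 155 to 284 calls. This was the smallest of the 5 differences, 6.91 points, and the 1 with the least spread between heifers (SD 0.553 and 1.56 points). At its positions listed in all 6 heifers the levels were 93.2%, 95.4% and 91% against 95.3%, 97.4% and 98.8%, so the groups overlapped there and the difference was 4.00 points.

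Among the 5 bins lower in IUHT-H, chr11:105130000-105139999 had levels of 74.2%, 73.2% and 65.0% in IUCL-H and 29.9%, 57.1% and 42.0% in IUHT-H, from 40 to 157 calls. The cooled heifers were close together and the in utero heat stressed heifers were spread more widely (SD 5.03 and 13.7 points). At chr2:52400000-52409999 the levels were 86.7%, 90.7% and 81.8% in IUCL-H and 46.9%, 62.8% and 65.8% in IUHT-H, from 22 to 64 calls. At chr20:58300000-58309999 they were 90.3%, 97.3% and 83.8% against 58.3%, 58.1% and 69.2%, from 26 to 37 calls. Both bins had high levels in the cooled heifers and intermediate levels in the in utero heat stressed heifers. Neither was called, at depths where 1 call moves a heifer's level by more than 1 point.

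At chr18:64770000-64779999 the levels were 80.9%, 82.7% and 84.8% in IUCL-H and 60.6%, 55.4% and 62.7% in IUHT-H, from 33 to 92 calls. The dispersion within groups was 0.291 here and the difference was −23.2 points. Single bins vary widely in dispersion, and ranking by p favours bins where it is low. The last bin of this direction, chr17:4440000-4449999, was deep, with 1932 to 2701 calls per heifer. Its levels were 33.7%, 48.2% and 35.8% in IUCL-H and 31.1%, 21.9% and 26.8% in IUHT-H, so the highest in utero heat stressed heifer lay just below the lowest cooled heifer. The bin held 5 positions with more than 10 reads in all heifers. The difference of −12.6 points over all its calls was −2.84 points at the shallow positions, which were taken per heifer. With each position weighted alike it was −1.51 points. At positions listed in all 6 heifers it was −12.9 points, with levels of 33.0%, 47.9% and 35.2% against 30.2%, 20.9% and 26.4%. Those calls are part of the ranked ones, so this was not a separate check. Over all calls the difference was −8.11 points without heifer 2 of IUCL-H. It was −15.4 to −8.11 points over all choices of a heifer to leave out.

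**Figure D3:**
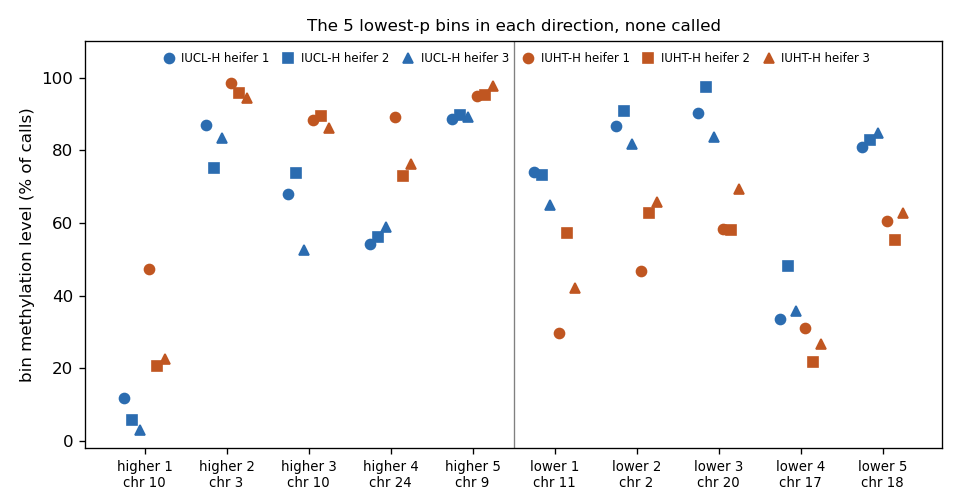
Methylation level in percent of calls (vertical axis) of each heifer in the 5 bins with the lowest p-values in each direction (horizontal axis, named by direction, rank and chromosome). Symbols are heifers. Within the 10 bins the groups do not overlap, by the way the bins were ranked, and the gap is smallest in the bin of chromosome 17.

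The bins with most calls showed no separation of the groups. The bin chr11:107280000-107289999, with 14721 to 26624 calls per heifer, had levels of 88.0%, 84.7% and 88.1% in IUCL-H and 87.4%, 87.1% and 90.3% in IUHT-H. At chr9:65870000-65879999 they were 87.4%, 84.9% and 86.7% against 83.7%, 86.9% and 87.7%, from 12706 to 66995 calls. At chr29:30230000-30239999 they were 57.8%, 56.9% and 61.8% against 57.1%, 57.1% and 66.3%, from 9070 to 11956 calls. The groups overlapped in each, with differences of 1.33, −0.223 and 1.39 points and edgeR p-values of 0.128, 0.824 and 0.492. The SD within groups was 1.28 to 5.28 points in these bins.

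Neighbouring bins hardly shared their difference. Over pairs of adjacent kept bins the correlation of the group difference was 0.0386, a description over bins that share the same 6 libraries, and for the 6 pairs of heifers within a group it was 0.0230 to 0.0459. Runs of neighbouring bins without overlap in 1 direction were at most 3 bins long. Over 82844 pairs of adjacent kept bins there were 354 runs of 2 or more bins. Of these runs, 16 had 3 bins, 5 higher and 11 lower in IUHT-H. Of all bins, 4.55% were higher and 4.44% lower without overlap. The number of runs was not tested against these shares. The run of 3 with the largest mean difference was chr17:72920000-72949999, with mean levels of 72.9%, 70.9% and 72.2% in IUCL-H and 64.0%, 57.3% and 66.2% in IUHT-H, with differences of −11.5, −9.77 and −7.11 points in its 3 bins. At chr28:6510000-6539999 the levels were 88.1%, 84.3% and 84.6% against 74.6%, 76.8% and 78.3%, with the groups apart in each bin by the choice of the runs. The first in the other direction was chr29:33890000-33919999, with 68.3%, 64.2% and 61.7% against 75.3%, 72.4% and 73.0%. The bins in these 3 runs had 53 to 187 calls per heifer, and their lowest edgeR p was 0.0254.

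Sorting bins by their mean level over all 6 heifers showed where the heifers differed from each other. In the 40450 bins with a mean level of 80 to 90%, the largest class, the heifers lay between 83.8% and 85.4%. In the 7838 bins at 90% or more they lay within 0.562 points of each other. In the 7763 bins with a mean level of 20 to 50% they were at 39.3%, 45.5% and 29.2% in IUCL-H and 33.5%, 39.9% and 30.7% in IUHT-H, a range of 16.3 points. The highest and the lowest heifer of that class both belonged to IUCL-H, so the group means of 38.0% ± 8.24 and 34.7% ± 4.71 (SD, n = 3 each) differed by −3.29 points with an exact permutation p of 0.7. Without heifer 3 of IUCL-H the difference was −7.70 points and without heifer 2 it was 0.455 points.

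The 1720 bins with a mean level under 20% had levels of 15.4%, 19.3% and 10.8% in IUCL-H and 12.5%, 15.5% and 12.8% in IUHT-H. Heifer 2 of IUCL-H was highest and heifer 3 lowest again, and the groups differed by −1.57 points (exact permutation p = 0.7). At positions listed in all 6 heifers, in the 197 of these bins that had enough calls there, the levels were 6.56%, 7.56% and 6.46% in IUCL-H and 6.17%, 6.41% and 6.45% in IUHT-H. There the groups did not overlap, with little room between heifer 3 of either group, and the difference of −0.515 points had the smallest p the design allows (exact permutation p = 0.1), while over all positions of the same bins it was −1.33 points. With these positions weighted alike it was −0.465 points (exact permutation p = 0.5). The 18521 bins at 50 to 70% differed by −0.501 points and the 33399 bins at 70 to 80% by 0.0740 points. Bins were also classed by listed positions, by calls and by whether they held a position with more than 10 reads in all heifers. Of all 16 classes, 10 were lower and 6 higher in IUHT-H, with exact permutation p-values of 0.5 to 1 and adjusted values of 1. Bins with 195 or more listed positions had group means of 72.6% ± 2.26 in IUCL-H and 71.4% ± 1.55 in IUHT-H (SD, n = 3 each), a difference of −1.18 points (exact permutation p = 0.6) that was smaller than either SD. In the 17320 of these bins with enough calls at positions listed in all 6 heifers it was −0.638 points over all positions, 0.135 points at the listed ones and 0.303 points with these weighted alike. The 1757 bins that held a position with more than 10 reads in all heifers differed by −1.03 points and the 107934 bins without one by −0.296 points. Without overlap were 3.13% higher and 8.71% lower of the former, against 4.58% and 4.37% of the latter. By calls in the shallowest heifer, the differences were 0.166 points at 20 to 29 calls, −0.147 at 30 to 48, −0.497 at 49 to 94 and −0.728 at 95 or more. The last of these had the lowest p of the 16 classes (exact permutation p = 0.5), and it was −1.44 to −0.127 points without 1 heifer, but in the 19874 of these bins with enough calls at positions listed in all 6 heifers it was −0.573 points over all positions, 0.114 points at the listed ones and 0.272 points with these weighted alike. Over all bins the mean difference was −0.0538 points with a minimum of 10 calls, −0.612 with 50 and −0.725 with 100 (exact permutation p = 1, 0.6 and 0.5).

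Heifers also differed in how many calls and which positions they had in the intermediate class. The median bin of this class had 64, 62 and 109 calls in IUCL-H and 69, 76 and 103 in IUHT-H, so the heifers with the lowest levels, heifer 3 of either group, had most calls there. Over all kept bins the medians were closer, at 65, 70 and 77 against 57, 78 and 73. In the 691 bins of the class that had enough calls at positions listed in all 6 heifers, the levels over all positions were 41.3%, 44.0% and 34.9% in IUCL-H and 34.4%, 40.5% and 36.1% in IUHT-H, a range of 9.66 points. At the shared positions of the same bins they were 39.3%, 41.5% and 36.8% against 35.0%, 38.5% and 38.6%, a range of 6.49 points. With each shared position weighted alike the range was 3.27 points, and the groups still overlapped. The part of the calls per bin in the heifers' levels was not tested beyond these values.

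**Figure D4:**
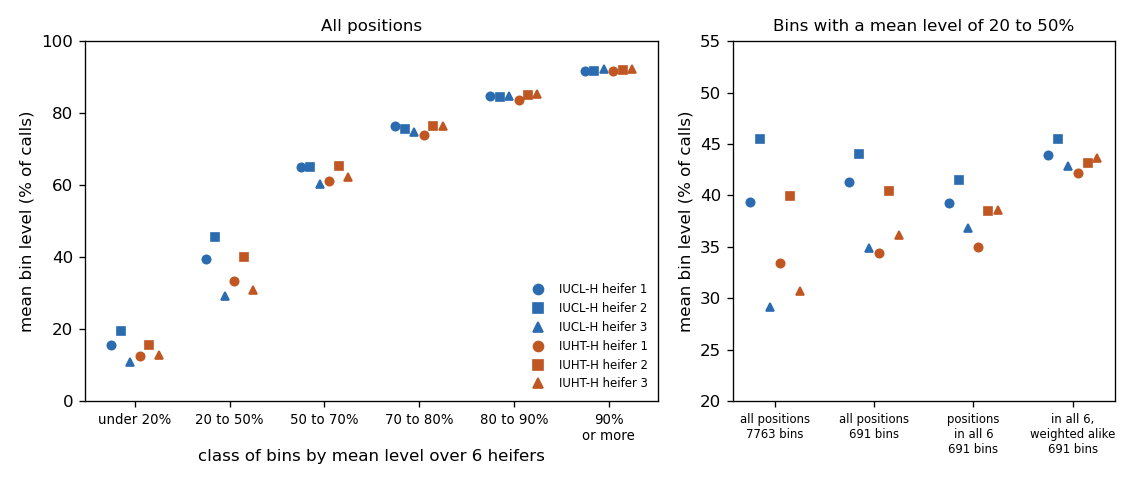
Mean bin level in percent of calls (vertical axes) of each heifer, on the left by class of the bins' mean level over all heifers and on the right for the class at 20 to 50% under 4 choices of bins and positions. Symbols are heifers, and the vertical axis on the right does not start at 0. The heifers spread over 16.3 points at 20 to 50% and over 1.60 points at 80 to 90%, and on the right their range is 3.27 points once positions listed in all 6 heifers are weighted alike.

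Heifers of a group differed by several points in a typical bin, in part by counting error. The SD of 3 heifers had a median of 4.89 points in IUCL-H and 5.08 points in IUHT-H, and the median standard error of the difference was 4.56 points. The root mean square SD was 7.33 and 7.30 points, against 5.24 and 5.23 points from counting error alone. In bins with 95 or more calls in the shallowest heifer it was 4.98 and 5.05 points while counting error was 2.77 and 2.83. The class at 20 to 50% was the most variable of the level classes, with 12.8 points in IUCL-H and 11.0 in IUHT-H against counting errors of 5.83 and 5.56. The larger SD of a bin belonged to IUHT-H in 51.4% of all bins and in 39.7% of the bins at 20 to 50%.

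Differences between single heifers were of like size within and between groups. The SD over bins of the difference between 2 heifers was 9.58 to 10.9 points for the 6 pairs within a group and 8.82 to 11.4 points for the 9 pairs between groups. The correlation of levels over bins, which share their base composition and mappability, was 0.817 to 0.847 within and 0.793 to 0.874 between groups. By either measure the pair of heifers most alike and the pair least alike were both 1 from each group.

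Leaving out 1 heifer at a time gave calls only without heifer 3 of IUCL-H. Then 8 bins were called (0.00729%), all lower in IUHT-H and 7 of them at a q-value of 0.199, just under the cut-off, and the count of bins under an unadjusted p of 0.05 went from 3855 (3.51%) to 6053 (5.52%), of which 1522 were higher and 4531 lower. These 8 bins were looked at after that result was seen. At chr13:74010000-74019999 the levels were 60.5%, 70.2% and 25.4% in IUCL-H and 15.9%, 26.0% and 7.55% in IUHT-H, from 38 to 118 calls. At chr13:24650000-24659999 they were 27.9%, 50.8% and 8.92% against 10.3%, 12.0% and 7.42%, and at chr5:119770000-119779999 46.2%, 46.3% and 14.7% against 16.3%, 22.6% and 16.5%. In each of these 3 bins heifers 1 and 2 of IUCL-H stood above the other 4 heifers. The bins were called lower in IUHT-H on these cooled heifers, so their place above IUHT-H adds nothing to the call. Heifers 1 and 2 of IUCL-H also had the fewest calls at chr13:24650000-24659999 (68 and 65 against 83 to 314) and on chromosome 5 (93 and 95 against 239 to 407). At chr13:74010000-74019999 they had 38 and 47, against 44 in heifer 1 of IUHT-H. With positions weighted alike the difference on chromosome 5 went from −17.3 to −10.4 points. It went from −19.3 to −16.8 points at chr13:24650000-24659999 and from −35.6 to −26.4 points at chr13:74010000-74019999. The part of the calls in these levels was not tested. Heifer 3 of IUCL-H lay within the range of the in utero heat stressed heifers in both bins of chromosome 13 and below it on chromosome 5. The bin chr27:24100000-24109999 had higher levels, 83.6%, 90.3% and 54.0% against 61.5%, 59.3% and 68.3%, with heifer 3 of IUCL-H the lowest of all.

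The other 4 bins lay within chr25:32360000-32479999, a stretch of 12 bins of which 10 were kept. It held bins far deeper than its surroundings, with up to 11104 calls in a heifer at its last bin and 1434 to 4624 in its first 2 bins, against 26 to 107 in the flanking bins. The part of this depth in the levels was not tested. The mean level over these 10 bins was 48.9%, 67.5% and 27.8% in IUCL-H and 43.8%, 47.4% and 32.2% in IUHT-H. Heifer 2 of IUCL-H was the highest in 9 of the 10 bins, and heifer 3 of IUCL-H was the lowest in 5. The 10 bins include the 4 that were called without heifer 3 of IUCL-H, where a high place of heifer 2 comes with the call. In the 7 kept bins flanking the stretch the heifers lay between 69.0% and 77.4%, and there heifer 3 of IUCL-H was the highest. The group means in the stretch were 48.1% ± 19.8 and 41.1% ± 7.96 (SD, n = 3 each), so the difference of −6.96 points was smaller than either SD. The heifers with the lowest levels had most calls in the stretch, 13907 in heifer 3 of IUCL-H and 17893 in heifer 3 of IUHT-H against 5906 to 8530 in the others. The last bin alone held 6345 and 11104 of these calls, and the 2 heifers had the most calls in 3 of the 10 bins, while the levels above weight the bins alike. The part of the calls in the heifers' levels was not tested over the stretch as a whole.

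At the end of the stretch, chr25:32470000-32479999 had 931 to 11104 calls per heifer and levels of 46.5%, 59.6% and 11.8% in IUCL-H and 31.8%, 33.3% and 23.2% in IUHT-H. At the positions listed in all 6 heifers the levels were 46.0%, 58.7% and 11.3% against 31.5%, 31.9% and 22.8%. These positions had at least 865 calls in every heifer, against at least 931 over all positions. The order of the heifers was the same there, but both sets share many calls, so this was not a separate check. At the shallow positions of this bin heifer 3 of IUCL-H was at 53.2%, between heifers 1 and 2 of its group at 49.5% and 59.8%, against 35.0%, 36.5% and 40.7% in IUHT-H. Heifer 3 of IUCL-H was the lowest of all heifers over all calls and not at the shallow positions. Shallow positions were taken per heifer, so the sets compared can differ. The group difference was −16.8 points at shallow positions, against −9.89 points over all calls.

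**Figure D5:**
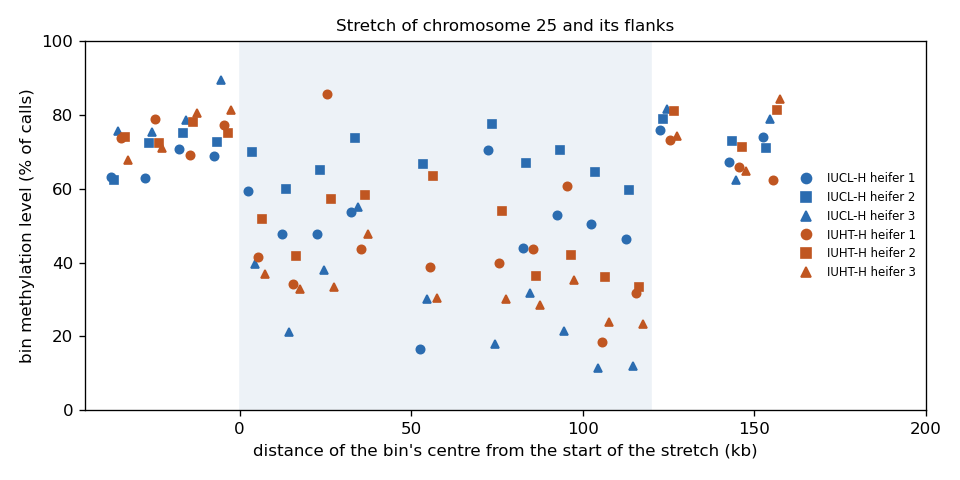
Methylation level in percent of calls (vertical axis) of each heifer in kept 10 kb bins of a stretch of chromosome 25 (shaded) and its flanks, by distance from the start of the stretch in kb (horizontal axis). Symbols are heifers. Inside the stretch single bins range from 11.5% to 85.7%, with heifer 2 of IUCL-H at the top in 9 of 10 bins. In the 7 flanking bins single bins range from 62.3% to 89.6%, and the means of the heifers lie between 69.0% and 77.4%.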

How the data were processed

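Reduced representation bisulfite sequencing was run on mammary DNA, and 6 heifers were analysed here; the study's methods name 1 more in utero cooled heifer, which was not analysed here. DNA was digested by the authors with the enzymes MspI and TaqαI, and fragments under 300 bp were treated with bisulfite and read from 1 end over 50 bases. Per the labels, reads were trimmed with Trim Galore 0.4.4 and mapped to UMD3.1 with Bismark 0.17.0, and the study's methods name other versions of these tools and the assembly as UMD3.1.1, so coordinates rest on the name in the labels. The deposited files give, for each listed cytosine of a heifer, the count of methylated and of unmethylated calls and the percent methylated, with no minimum on reads. Fragment selection makes coverage uneven, and single cytosines are mostly read 1 time.

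Positions on chromosomes 1 to 29 were assigned to bins of 10 kb by their coordinate, and counts were summed per heifer. Bins with at least 20 calls in each of 6 heifers were kept. Depth was 13031819 to 18912489 calls per heifer. Counts were tested with edgeR 4.0.16 (quasi-likelihood, heifer and treatment terms), with calls at a Benjamini-Hochberg q-value of at most 0.2 and a difference of at least 15 points. A single value per heifer was compared by a two-sided exact permutation test over 20 splits. Alternatives were limma 3.58.1 on log2((methylated + 0.5)/(unmethylated + 0.5)), logistic regression with and without overdispersion, other minimums and bin widths, other choices of positions, thinning to 20 calls, and leaving out each heifer. The scripts were tested on simulated data. Named bins were the called bins or, with fewer than 5 called in a direction, the 5 of lowest p without overlap and at least 100 kb apart, the 3 deepest bins, and the 3 longest runs without overlap. The rule, the bins and the classes were chosen with earlier results of these data known. No gene was named, since an annotation of UMD3.1 was not used here.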

Additional observations from a re-analysis of the deposited data

How the results depend on the processing

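With 3 heifers in a group, single bins carry a median standard error of 4.56 points, and 1 heifer moves most group differences. The count of called bins was 0 under 19 of 20 alternatives other than leaving out a heifer, of which 3 only moved the cut-offs on the same p-values and could give no call at a lowest q-value of 1. The F test per bin (lowest p 0.00293) and edgeR on bins of 1 Mb (0.593% under 0.05) gave few small p-values, so their lack of calls adds little. The count of called bins did not stay at 0 in all settings. It was 1637 with logistic regression, whose construction leaves out the spread between heifers, and 0 to 8 when 1 heifer was left out (8 without heifer 3 of IUCL-H). No paired analysis was possible because the heifers' numbers were given in the order of their records and the labels give the groups no shared number.

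The sign of the mean difference turned with the median over bins (0.0596) and at positions listed in all 6 heifers (0.131; these keep fewer bins, which gave −0.509 over all their positions), and it ran from −1.01 to 0.356 points without 1 heifer. The number of chromosomes lower in IUHT-H was 2 to 29 without 1 heifer. It was 13 with centred heifers, where the mean difference over bins is removed by construction. The median SD was 7.64 points in both groups after thinning to 20 calls, and 3.03 and 3.24 points with a minimum of 100 calls. Among bins under an unadjusted p of 0.05, 44.6% were higher in IUHT-H in the main test and 25.1% to 60.0% without 1 heifer. The share was 67.8% when edgeR was centred by pooled ratios. In limma it was 51.4%, and 49.8% with log2 ratios centred on each heifer's median. The split thus depended on how the heifers were centred.

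For the classes of bins, signs turned as follows, in points. With a minimum of 100 calls the difference was −0.471 at a mean level of 70 to 80%, −0.162 at 80 to 90%, −0.00981 at 90% or more, and −0.581 and −0.909 in bins with up to 81 and 82 to 119 listed positions. At positions listed in all 6 heifers it was −0.180, −0.0260, 0.219 and 0.135 in bins with up to 81, 82 to 119, 120 to 194 and 195 or more listed positions, 0.403, 0.214 and 0.114 in bins with 30 to 48, 49 to 94 and 95 or more calls in the shallowest heifer, and 0.219 in bins without a position over 10 reads in all heifers. With these positions weighted alike, an alternative added after the data were seen, it was 0.155 at 50 to 70%, −0.306, 0.272 and 0.303 in bins with up to 81, 120 to 194 and 195 or more listed positions, 0.395, 0.239 and 0.272 in bins with 30 to 48, 49 to 94 and 95 or more calls, and 0.339 in bins without a deep position. With centred heifers, which shifts every class by the same amount, it was 0.161 in bins with 30 to 48 calls and 0.0118 in bins without a deep position. Positions listed in all 6 heifers also keep fewer bins. Over all positions of those fewer bins the sign had already turned in bins with up to 81 (−0.0201) and 82 to 119 listed positions (−0.362) and with 30 to 48 calls (0.204), while it had not at 120 to 194 (−0.0608) and 195 or more listed positions (−0.638), at 49 to 94 (−0.135) and 95 or more calls (−0.573), at 50 to 70% (−1.77) and without a deep position (−0.463). The cause was otherwise not tested.

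Without 1 heifer the class differences ran from −3.76 to 0.502 under 20%, −7.70 to 0.455 at 20 to 50%, −2.09 to 0.411 at 50 to 70%, −0.369 to 0.955 at 70 to 80%, −0.285 to 0.515 at 80 to 90% and −0.120 to 0.190 at 90% or more. By listed positions they ran from −0.0636 to 1.05, −0.306 to 0.871, −1.43 to 0.171 and −2.46 to −0.349, in the 4 classes from few to many. By calls in the shallowest heifer they ran from −0.329 to 0.875, −0.862 to 0.526, −1.38 to 0.176 and −1.44 to −0.127, and they ran from −1.01 to 0.362 in bins without a deep position and −1.53 to −0.0479 in bins with one.

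Of the named bins, chr17:4440000-4449999 was at 3.33 points after thinning. Thinning was a single random draw of 20 calls per heifer and bin. Over all thinned bins, counting error alone gave a root mean square SD of 9.03 points in IUCL-H and 9.01 points in IUHT-H. Values after thinning carry that error. The deep bin on chromosome 11 was at −0.765 with positions weighted alike and −8.33 after thinning. The deep bin on chromosome 9 was at 1.40, 3.33 and, at shallow positions, 4.35 points, and it ran from −1.01 to 0.959 without 1 heifer, while the deep bin on chromosome 29 ran from −1.66 to 2.91 and was at 26.7 after thinning. Thinning to 20 calls also moved chr13:24650000-24659999 from −19.3 to −1.67 points. On chromosome 25, the bin at 32370000 was at 0 after thinning, 3.81 at shallow positions and −17.7 to 1.80 without 1 heifer. The bin at 32470000, at −9.89 in the main setting, was at 0 after thinning and −23.6 to 0.260 without 1 heifer. At shallow positions it was larger, at −16.8 points.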
